A study of Mus musculus with 6 samples.

Results

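The miR-99/100 and miR-125 families were followed through 7 mature miRNA names on a mouse miRNA microarray: mmu-miR-99a, mmu-miR-99b, mmu-miR-99b*, mmu-miR-100, mmu-miR-125a-5p, mmu-miR-125a-3p and mmu-miR-125b-5p. Members were chosen by name alone, as the names of the scanner output that belong to these families, and all 7 were found among the 690 mouse miRNAs on the array. Total RNA came from cartilage microdissected out of the femoral growth plate of C57BL/6 mice at 12 days of age, with no treatment or altered allele named. The 3 groups were the proliferative, prehypertrophic and hypertrophic zones, with 2 one-colour arrays each. Every hybridisation used 100 ng of RNA, and 5 growth plates were pooled for it, so a value averages several growth plates and every cell type left in the dissected zone. The design text calls the hybridisations independent but does not say which animals entered which pool, and p-values measure only the spread between these 6 samples. In such bulk RNA, fewer cells of a type and less RNA per cell cannot be told apart.

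A miRNA is cut from a hairpin precursor that yields a 5p and a 3p strand, called arms. One arm is usually kept by an Argonaute protein and the other, marked with a star in older names, is mostly degraded. Bases 2 to 8 of the kept arm form the seed, which pairs with target mRNAs, and miRNAs with one seed are expected to share many targets. Mammalian genomes carry miR-99/100, let-7 and miR-125 genes side by side in clusters, an arrangement related to the fly cluster of miR-100, let-7 and miR-125, whose last member is the counterpart of worm lin-4. MTOR is a well-known target of miR-99/100, and Lin28 of miR-125 and let-7. In the growth plate, chondrocytes divide in the proliferative zone, leave the cell cycle in the prehypertrophic zone and enlarge in the hypertrophic zone, where vessels enter from the bone.

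All 7 members matched RefSeq entries of mouse build GRCm38.p6. Their mature sequences are shown because the shared seeds define the families and the few bases that differ outside the seed are what a probe has to tell apart. Capitals mark the seed, bases 2 to 8, and all sequences run 5′ to 3′.
mmu-miR-99a: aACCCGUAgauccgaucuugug
mmu-miR-100: aACCCGUAgauccgaacuugug
mmu-miR-99b: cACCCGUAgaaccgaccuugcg
mmu-miR-125a-5p: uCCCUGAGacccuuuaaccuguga
mmu-miR-125b-5p: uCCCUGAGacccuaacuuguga
mmu-miR-99b*: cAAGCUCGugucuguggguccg
mmu-miR-125a-3p: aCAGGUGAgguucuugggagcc
The miR-99/100 members carry the seed ACCCGUA. Counting from 1 at the 5′ end, mmu-miR-99a and mmu-miR-100 differ at 1 of 22 bases (U16A), and mmu-miR-99a and mmu-miR-99b at 4 (A1C, U11A, U16C and U21C). The 5p arms of miR-125 carry CCCUGAG and share their first 13 bases. Neither 3p arm shares a seed with a 5p arm or with the other 3p arm. The array files do not give probe sequences, and cross-hybridisation between mmu-miR-99a and mmu-miR-100 was not tested.

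The genes lie in 3 clusters, all on the plus strand. On chromosome 17, mmu-miR-99b is encoded at chr17:17830194-17830215, its star arm at chr17:17830232-17830253, mmu-miR-125a-5p at chr17:17830817-17830840 and mmu-miR-125a-3p at chr17:17830855-17830876. Their mature 5p arms start only 623 bases apart, with let-7e between them, and all 3 miRNA genes lie within the span of the protein-coding gene Spaca6. On chromosome 16, mmu-miR-99a lies at chr16:77598940-77598961 and one copy of mmu-miR-125b-5p 47.3 kb further on, at chr16:77646279-77646300. On chromosome 9, mmu-miR-100 lies at chr9:41531437-41531458 and the other copy of mmu-miR-125b-5p 50.5 kb further on, at chr9:41581940-41581961. That cluster lies within Mir100hg, a long non-coding RNA gene. The mature mmu-miR-125b-5p of both copies is the same sequence, so its signal cannot be assigned to either cluster.

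Scaled signal is the processed spot intensity divided by each array's 75th percentile over 342 probes that were well above background on every array, and then multiplied by a common factor. The brightest probe of every member was well above background on all 6 arrays. Signals of different probes are not comparable as amounts, because probes bind with different efficiency, so members are compared only by how the signal of a probe changes between arrays. Differences between zones were tested with limma over 226 miRNAs, with p-values adjusted by Benjamini-Hochberg within each contrast and called under 0.05.

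The 5p arms of the chromosome 17 cluster fell from the proliferative to the hypertrophic zone. Both calls were lost with each array scaled to the 75th percentile of all probes or to the median of the detected probes, with no scaling, and with no filter on dim miRNAs. At the main settings these 5p arms were the 2 of 7 members called lower in that comparison, in which 8.85% of all tested miRNAs were called lower, and no member was called higher. The 3p arms of the same hairpins did not pass, nor did mmu-miR-99a, mmu-miR-100 or mmu-miR-125b-5p of the other clusters. At the same main settings the let-7 miRNAs of those clusters, which are not members, were called lower: mmu-let-7c (-0.90, limma adjusted p = 0.0393) and mmu-let-7a (-0.87, limma adjusted p = 0.0474). No member was called between the prehypertrophic and proliferative zones, where 2.21% of tested miRNAs were called in either direction, or between the hypertrophic and prehypertrophic zones, where 1.33% were. At an unadjusted p under 0.05, 3 members differed between the outer zones, 2 between the prehypertrophic and proliferative zones and 0 between the hypertrophic and prehypertrophic zones, against 60, 29 and 34 of the 226 tested miRNAs. The arrays of the outer zones did not overlap for 5 of 7 members, against 46.9% of tested miRNAs. The median log2 fold change of the members between the outer zones was -0.24, beside 0.0 over all tested miRNAs.

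**Figure D1:**
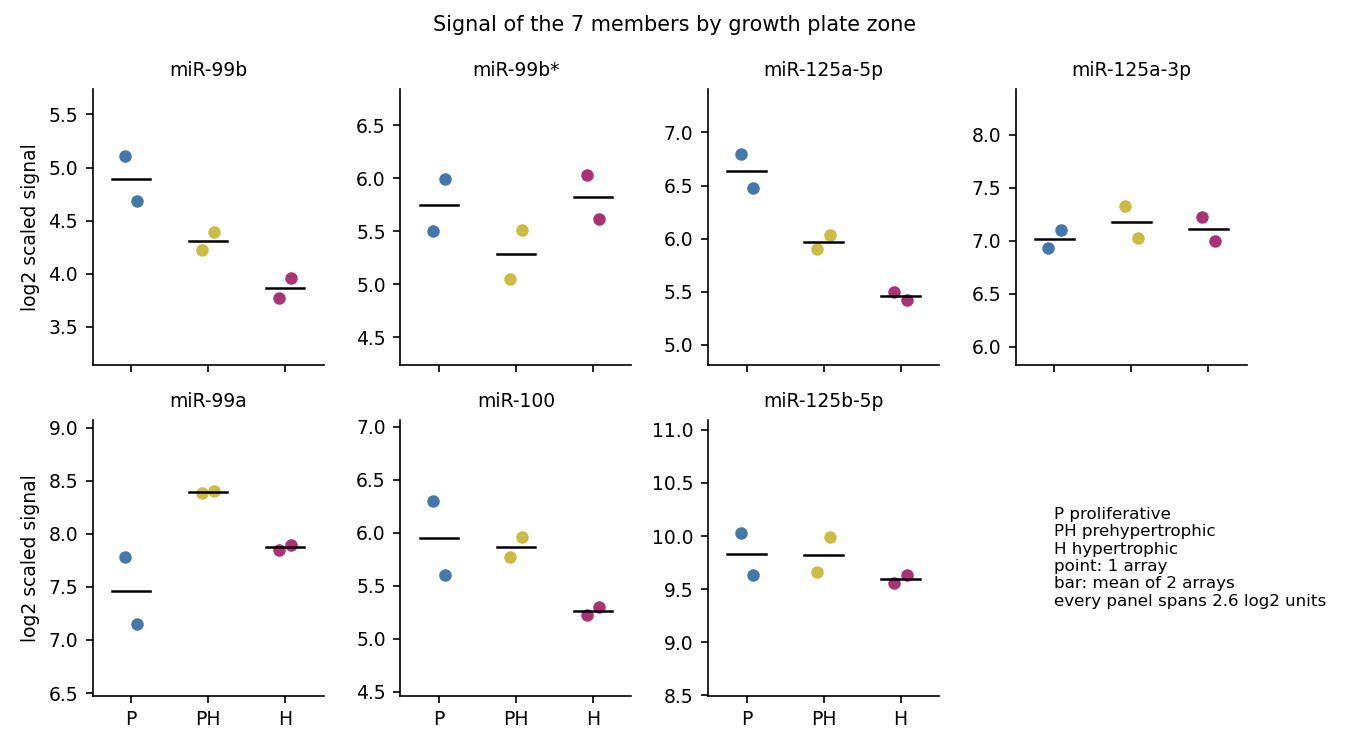
Log2 scaled signal of the brightest probe of each member on each array, by zone (P proliferative, PH prehypertrophic, H hypertrophic); points are arrays and bars the means of 2 arrays. miR-99b and miR-125a-5p step down from P to H, while the arrays of these zones overlap for miR-99b* and miR-125a-3p.

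mmu-miR-125a-5p, a lin-4 counterpart, had scaled signals of 111 and 89.0 on the proliferative arrays, 65.5 and 59.6 on the prehypertrophic arrays and 45.2 and 42.7 on the hypertrophic arrays. Each zone lay below the one before it without overlap. The log2 mean was 6.64 ± 0.23 (SD, n = 2) in the proliferative zone, 5.96 ± 0.10 in the prehypertrophic zone and 5.46 ± 0.06 in the hypertrophic zone. The hypertrophic level was 2.26-fold lower than the proliferative one (log2 fold change -1.18, SE 0.26, 95% interval -1.74 to -0.62, limma adjusted p = 0.0118). The difference between the prehypertrophic and proliferative zones was -0.67 (adjusted p = 0.25) and that between the hypertrophic and prehypertrophic zones -0.51 (adjusted p = 0.275), neither past the threshold. The call was lost without the first proliferative array (-1.02, adjusted p = 0.0664), the first hypertrophic array (-1.22, adjusted p = 0.151) or the second (-1.14, adjusted p = 0.177).

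mmu-miR-99b, encoded just upstream, gave scaled signals of 34.4 and 25.6 in the proliferative zone, 18.7 and 21.0 in the prehypertrophic zone and 13.6 and 15.6 in the hypertrophic zone. The zones again did not overlap, but the hypertrophic arrays lay close to the floor of 12.66 scaled units to which dimmer signals were raised. A floor 2 times higher, used as an alternative, raised all prehypertrophic and hypertrophic signals of mmu-miR-99b to the floor. Its differences at that setting are therefore set by the floor and measure no size. Log2 means were 4.89 ± 0.30 (SD, n = 2), 4.31 ± 0.12 and 3.87 ± 0.14 in zone order. The hypertrophic level was 2.04-fold lower than the proliferative one (log2 fold change -1.03, SE 0.27, 95% interval -1.61 to -0.44, adjusted p = 0.0298). The prehypertrophic zone differed from the proliferative one by -0.59 (adjusted p = 0.383). This call was the less stable of the pair. It was lost without the first proliferative array (-0.81, adjusted p = 0.137), the first hypertrophic array (-0.93, adjusted p = 0.296) or the second (-1.12, adjusted p = 0.179), and with the floor set 2 times higher the difference was -0.23 (adjusted p = 0.635).

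The star arm of the same hairpin, mmu-miR-99b*, had scaled signals of 45.3 and 63.5 in the proliferative zone, 33.1 and 45.6 in the prehypertrophic zone and 65.4 and 49.0 in the hypertrophic zone. Proliferative and hypertrophic arrays overlapped. The hypertrophic minus proliferative difference was 0.08 on the log2 scale (SE 0.30, 95% interval -0.58 to 0.73, adjusted p = 0.924). The interval allows a change of up to 1.66-fold upwards and overlaps that of mmu-miR-99b, from -1.61 to -0.44. The prehypertrophic arrays held the lowest value, with a difference of -0.47 from the proliferative zone (adjusted p = 0.623).

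By its brightest probe, mmu-miR-125a-3p, the other arm of the mir-125a hairpin, stayed between 122 and 161 scaled units on all 6 arrays. Its values were 122 and 137 in the proliferative zone, 161 and 130 in the prehypertrophic zone and 149 and 128 in the hypertrophic zone, with every zone overlapping every other. The hypertrophic minus proliferative difference was 0.10 (SE 0.26, 95% interval -0.48 to 0.67, adjusted p = 0.88). The other contrasts were 0.16 (adjusted p = 0.808) and -0.07 (adjusted p = 0.852). Its other probes gave differences of -0.38 to -0.23 between the outer zones.

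mmu-miR-99a had its highest signals in the prehypertrophic zone. Scaled signals were 220 and 142 on the proliferative, 335 and 338 on the prehypertrophic and 230 and 239 on the hypertrophic arrays, and no zone overlapped another. The prehypertrophic level was 1.90-fold the proliferative one (log2 fold change 0.93, SE 0.28, 95% interval 0.31 to 1.54), which had an unadjusted p of 0.00699 by limma but did not pass after adjustment (adjusted p = 0.14). The proliferative arrays were far apart, at a log2 mean of 7.47 ± 0.45 (SD, n = 2), against 8.39 ± 0.01 and 7.88 ± 0.04 in the prehypertrophic and hypertrophic zones. Without the first proliferative array the difference was 1.24, and without the second 0.61. The hypertrophic minus proliferative difference was 0.41 (95% interval -0.21 to 1.02, adjusted p = 0.464). It was 0.72 without the first proliferative array, and 0.09 without the second or with the slide row as a block.

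mmu-miR-100, which differs from mmu-miR-99a by a single base, had scaled signals of 79.0 and 48.6 in the proliferative zone, 54.5 and 62.4 in the prehypertrophic zone and 37.6 and 39.3 in the hypertrophic zone. Its hypertrophic arrays were the lowest, and its proliferative and prehypertrophic arrays overlapped. The hypertrophic minus proliferative difference was -0.69 (SE 0.29, 95% interval -1.33 to -0.05), with an adjusted p of 0.152 by limma. Its value rested on the first proliferative array: the difference was -0.34 without it (adjusted p = 0.434) and -1.04 without the second, when it passed (adjusted p = 0.0279).

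mmu-miR-125b-5p, which shares its seed with mmu-miR-125a-5p, passed the test in no contrast. Scaled signals were 1050 and 792 in the proliferative zone, 808 and 1010 in the prehypertrophic zone and 755 and 791 in the hypertrophic zone. The hypertrophic arrays lay just under the lower proliferative array, and the proliferative and prehypertrophic arrays overlapped. The hypertrophic minus proliferative difference was -0.24 (SE 0.27, 95% interval -0.83 to 0.36, adjusted p = 0.68) and turned to 0.24 when arrays were not scaled. The prehypertrophic minus proliferative difference was -0.01 (adjusted p = 1.0).

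**Figure D2:**
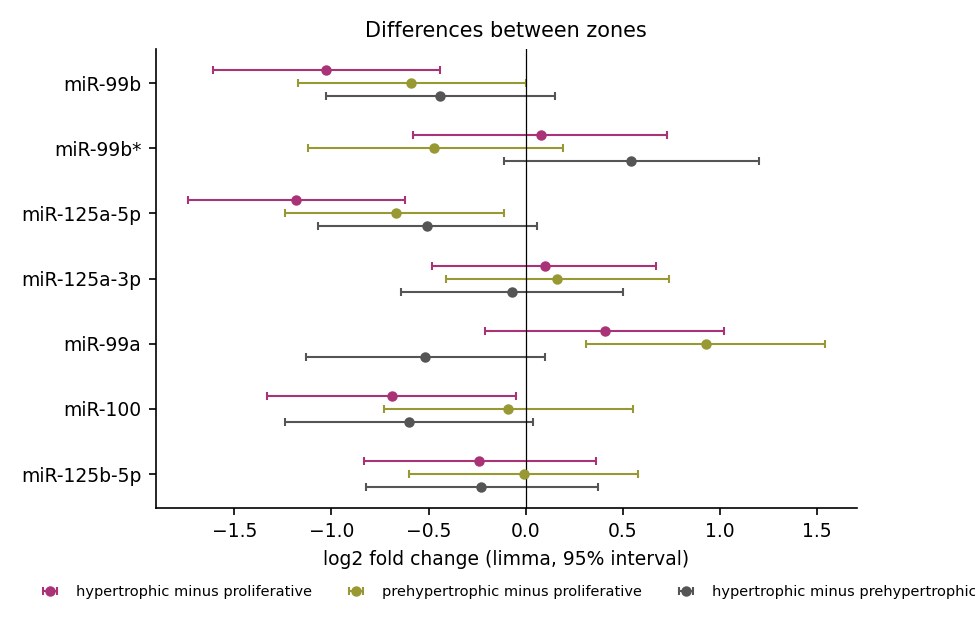
Log2 fold changes of each member in the 3 contrasts between zones, with 95% intervals from limma (x axis, log2 units). The intervals of miR-99b and miR-125a-5p for hypertrophic minus proliferative lie below 0, from -1.61 to -0.44 and from -1.74 to -0.62.

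Whether members changed differently from each other was asked with the log2 difference of a pair within each array, from which a common factor per array cancels as long as both signals lie above the floor. The hypertrophic minus proliferative change of that difference was tested by an exact two-sided permutation test over the 90 ways to assign 6 arrays to 3 zones of 2. The smallest p this design can give is 0.0222, and p-values were adjusted over 7 pairs. A pair could pass only if other pairs had very small p-values too, for example with 4 pairs at that smallest p together. None passed, which shows neither a difference nor its absence.

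Arm balance was the first question. Between the outer zones, mmu-miR-125a-5p changed relative to mmu-miR-125a-3p by -1.28 log2 units, a 2.42-fold shift towards the 3p arm (exact permutation p = 0.0222, adjusted p = 0.0778). Centred on its mean over the 6 arrays, this difference was 0.94 and 0.46 in the proliferative zone, -0.35 and 0.09 in the prehypertrophic zone and -0.64 and -0.51 in the hypertrophic zone. The outer zones did not overlap. Of the detected probe pairs of these arms, which ranged from -1.28 to -0.80, the brightest probes gave the largest change. With the mean over probes, limited in part by the floor, the change was -0.97 (exact permutation, adjusted p = 0.156). With the deposited table the change was -1.01 (exact permutation, adjusted p = 0.117). For mmu-miR-99b relative to mmu-miR-99b* the change was -1.10 (exact permutation p = 0.0889, adjusted p = 0.156). Its centred values were 0.86 and -0.05, then 0.43 and 0.14, then -1.0 and -0.39 in zone order, so the proliferative arrays were wide apart. mmu-miR-99b* was lower in every zone on the arrays titled 13 to 15 (45.3, 33.1 and 49.0) than on those titled 16 to 18 (63.5, 45.6 and 65.4). Within these runs the change of the pair was -1.25 and -0.95, a split that the permutation test does not use. The change was -0.65 without the first proliferative array and -1.56 without the second. It was -0.31 with the floor 2 times higher and -0.58 with the mean over probes, both limited by the floor. With normexp background correction it was -0.42. That correction adds an offset of 50 to the signals, which makes log2 differences of dim probes smaller.

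The loci were compared in the same way. mmu-miR-125a-5p changed relative to mmu-miR-125b-5p by -0.94 log2 units (1.92-fold, exact permutation p = 0.0222, adjusted p = 0.0778), with centred values of 0.49 and 0.58 in the proliferative zone, -0.03 and -0.22 in the prehypertrophic zone and -0.33 and -0.48 in the hypertrophic zone. The zones did not overlap and stood in the order of the growth plate. mmu-miR-99b changed relative to mmu-miR-99a by -1.43 (2.70-fold, exact permutation p = 0.111, adjusted p = 0.156). Here the whole change lay between the proliferative zone, at a centred 0.98 ± 0.14 (SD, n = 2), and the prehypertrophic zone, at -0.53 ± 0.11, with the hypertrophic zone at -0.45 ± 0.10. With the floor 2 times higher the change was -0.64 (exact permutation, adjusted p = 0.311), a value limited by the floor. With normexp and its offset it was -0.85 (exact permutation, adjusted p = 0.156).

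mmu-miR-99a changed relative to mmu-miR-100 by 1.10 (exact permutation p = 0.0667, adjusted p = 0.156). The proliferative arrays, at -0.74 and -0.67, stood apart from the other 4, which lay between 0.22 and 0.40. mmu-miR-99b relative to mmu-miR-100 changed by -0.34 (exact permutation p = 0.222, adjusted p = 0.244). The value was 0.46 with the higher floor and 0.18 with the mean over probes. Both are limited by the floor, so they show no turn in direction. The neighbours mmu-miR-99b and mmu-miR-125a-5p differed in their change by 0.15 (exact permutation p = 0.244, adjusted p = 0.244), and their outer zones overlapped. With the higher floor this difference was 0.95 (exact permutation, adjusted p = 0.0519), and with the mean over probes 0.65 (exact permutation, adjusted p = 0.0778). Both values are limited by the floor through the dim signal of mmu-miR-99b and measure no size. At the main settings all centred differences of this pair lay between -0.13 and 0.21.

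**Figure D3:**
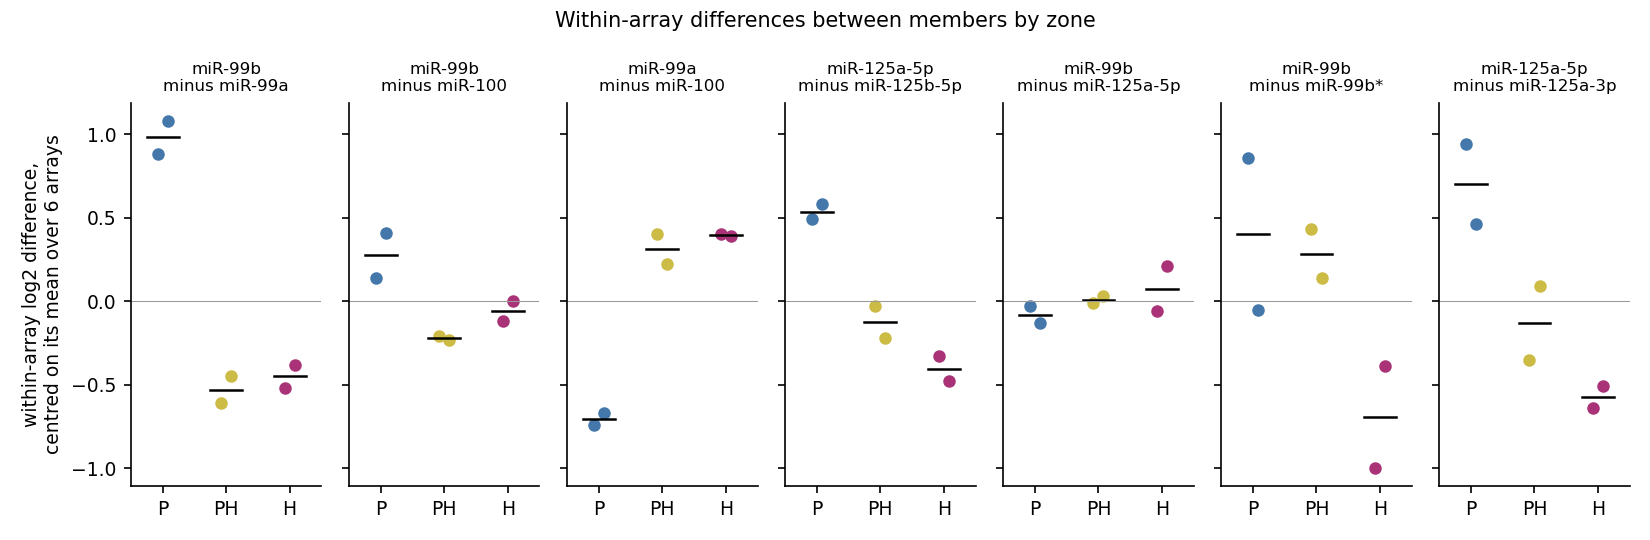
Within-array log2 difference of each pair of members, centred on its mean over the 6 arrays (y axis), by zone; points are arrays and bars means of 2 arrays. miR-125a-5p minus miR-125b-5p and miR-125a-5p minus miR-125a-3p go down from P to H, and miR-99b minus miR-125a-5p stays between -0.13 and 0.21.

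The array carries 18 probes for the members, of which 15 were well above background on all 6 arrays. The second probe of mmu-miR-125a-5p, well above background on 5 arrays, was also lower in the hypertrophic zone, at 13.8 and 11.2 against 31.7 and 27.0 in the proliferative zone. The last hypertrophic value lay under the floor, so the difference of -1.14 computed with the floor is limited by it. The second probe of mmu-miR-99b was well above background on 0 arrays and lay under the floor on all of them, so the fall of mmu-miR-99b rests on 1 probe. All 4 probes of mmu-miR-99b* gave differences between -0.08 and 0.16, and all 4 of mmu-miR-125a-3p between -0.38 and 0.10. Across the detected probe pairs the change in arm difference ranged from -1.28 to -0.80 for miR-125a and from -1.18 to -0.94 for miR-99b. The probes of mmu-miR-99a disagreed in size: the prehypertrophic minus proliferative difference was 0.93 for the brightest and 1.40 for the other. The brightest probe of mmu-miR-100 gave -0.69 between the outer zones. Its other probe lay under the floor on both hypertrophic arrays, at 8.51 and 8.98, so its -0.70 is set by the floor, is a bound only and is no second measurement of the size. Those of mmu-miR-125b-5p gave -0.24 and -0.15. Spots of one probe on one array varied with a coefficient of variation of 5.79% to 21.0% for mmu-miR-99b and 3.57% to 7.40% for mmu-miR-125a-5p.

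**Figure D4:**
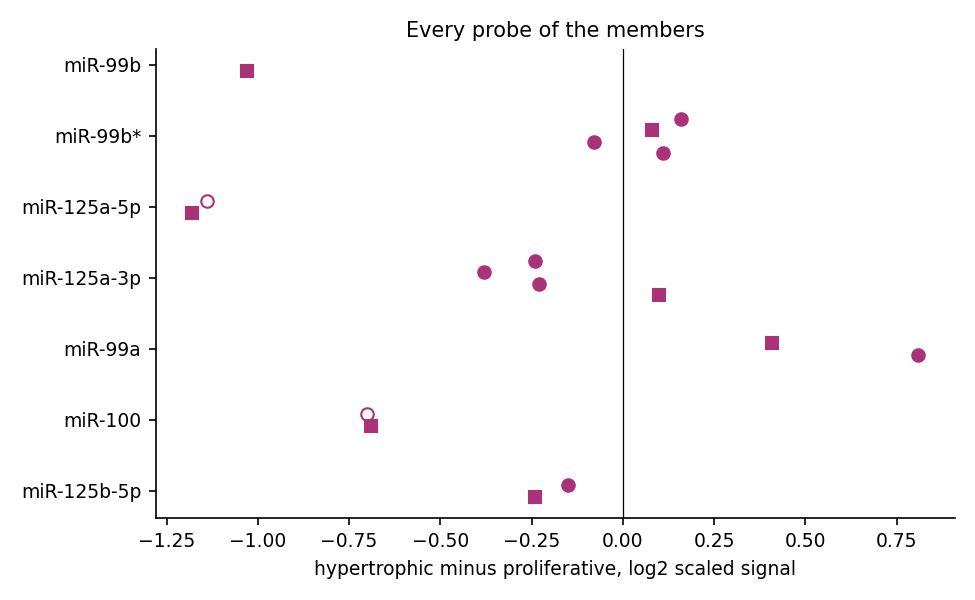
Hypertrophic minus proliferative difference in log2 scaled signal (x axis) for the members' probes; squares are the brightest probes, and open symbols mark probes not well above background on all arrays of both zones, whose values the floor limits. The second miR-99b probe, under the floor on all arrays, is left out; the detected probes of miR-99b* lie between -0.08 and 0.16.

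The let-7 miRNAs encoded between the members were followed as well. Their mature sequences resemble each other, and cross-hybridisation between their probes was not tested. mmu-let-7e, of the chromosome 17 cluster, carries the let-7 seed as shown here with bases 2 to 8 in capitals.
mmu-let-7e: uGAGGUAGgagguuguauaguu
Its scaled signals were 389 and 264 in the proliferative zone, 176 and 181 in the prehypertrophic zone and 124 and 121 in the hypertrophic zone. It fell between the outer zones (-1.39 on the log2 scale, SE 0.27, adjusted p = 0.00628 by limma), the same direction as both flanking 5p arms. mmu-let-7c, encoded 732 bases from mmu-miR-99a, also fell (log2 fold change -0.90, adjusted p = 0.0393), with 3110 and 2440 scaled units in the proliferative and 1400 and 1570 in the hypertrophic zone. Its neighbour mmu-miR-99a was at 0.41 in the same contrast, or at 0.09 without the second proliferative array, and the difference between these neighbours was not tested. mmu-let-7a, one of whose genes lies 5340 bases from mmu-miR-100, fell as well (-0.87, adjusted p = 0.0474). These let-7 calls are those of the main settings, and calls under the alternatives are not given. Mature let-7c and let-7a come from further genes too, so their signals are not readouts of these clusters alone.

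**Figure D5:**
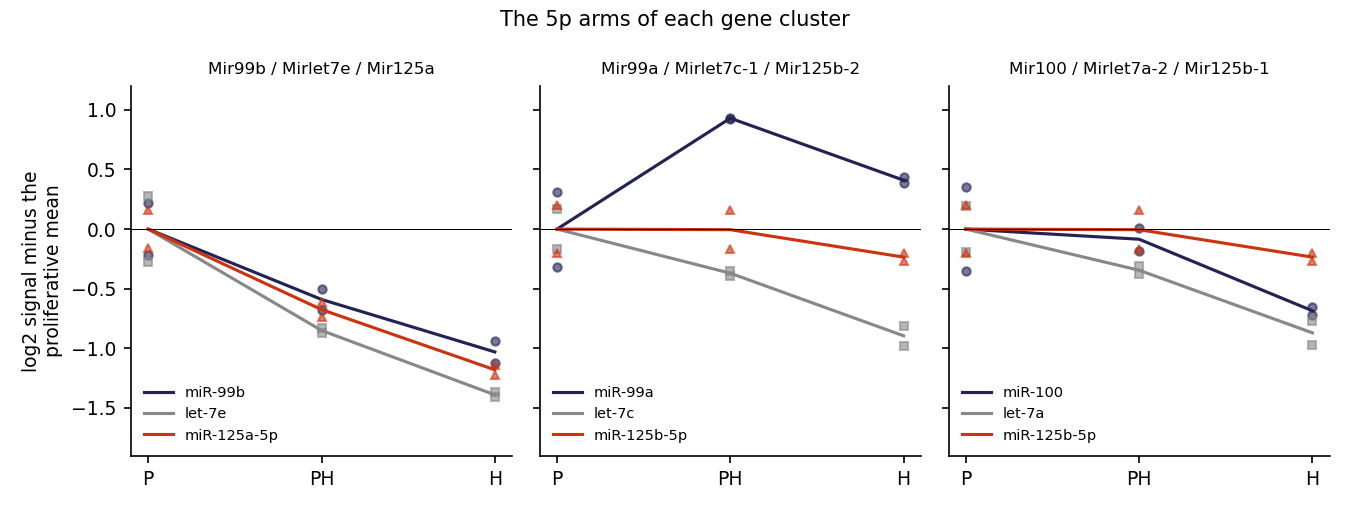
Log2 signal minus the proliferative mean (y axis) for the 5p arms of the 3 gene clusters by zone; symbols are arrays and lines join zone means. The chromosome 17 members all go down, to -1.03, -1.39 and -1.18 in H, whereas miR-99a in the second panel is at 0.93 in PH and 0.41 in H and let-7c beside it is at -0.90 in H. miR-125b-5p is drawn in both clusters that encode it.

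Other family names and relatives on the array added little signal. mmu-miR-125b* and mmu-miR-125b-3p, the 3p arms of the miR-125b hairpins, were well above background on 0 of 6 arrays, in contrast to both 3p arms of the chromosome 17 cluster. The same held for mmu-miR-670, and for mmu-miR-10a and mmu-miR-10b, whose sequences resemble miR-99/100. mmu-miR-351 carries the miR-125 seed but a different tail, and was detected in every zone.
mmu-miR-351: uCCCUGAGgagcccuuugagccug
Its difference between the outer zones was -0.06 (adjusted p = 0.927 by limma), beside -1.18 for mmu-miR-125a-5p and -0.24 for mmu-miR-125b-5p. The prehypertrophic minus proliferative difference of mmu-miR-351 was 0.74 (adjusted p = 0.179).

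The miRNAs with the most similar profiles were found by the root mean square difference of log2 signals over the 6 arrays, each miRNA centred on its own mean, among 225 others. For mmu-miR-125a-5p these were mmu-let-7b (0.09), mmu-miR-99b (0.11) and mmu-let-7e (0.12), against a median of 0.56 over all others. For mmu-miR-99b they were mmu-miR-196a (0.07), mmu-let-7b (0.08) and mmu-let-7c (0.10). mmu-miR-99a was nearest to mmu-miR-20b (0.15), mmu-miR-542-3p (0.17) and mmu-miR-20a (0.18), none of them a family member. mmu-miR-100 was nearest to mmu-miR-199a-3p (0.10), mmu-miR-107 (0.10) and mmu-miR-140 (0.12), the last a cartilage miRNA. mmu-miR-125b-5p was nearest to mmu-miR-92a (0.12), mmu-miR-365 (0.12) and mmu-miR-320 (0.14). The 3p arms had other neighbours: mmu-miR-341, mmu-miR-705 and mmu-miR-718 (0.06 each) for mmu-miR-99b*, and mmu-miR-686 (0.07), mmu-miR-500 (0.12) and mmu-miR-18a (0.12) for mmu-miR-125a-3p.

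Cartilage markers were present in all samples, with 4 of 4 (mmu-miR-140 and mmu-miR-455, both arms) well above background on all 6 arrays. Their summed scaled signal ranged from 6460 to 10400 in the proliferative zone, 6820 to 6920 in the prehypertrophic zone and 3910 to 4910 in the hypertrophic zone. The sum is mostly the signal of the mmu-miR-140 arms. No cartilage marker passed between the outer zones (limma adjusted p from 0.0534 to 0.488), and mmu-miR-455* had a difference of 0.37, against -0.98 to -0.76 for the others. The summed signal of 5 blood markers went from 26.8 to 41.1 in the proliferative and 45.2 to 47.3 in the prehypertrophic to 262 to 290 in the hypertrophic zone. Most of that hypertrophic sum was mmu-miR-451 (226 and 254), which rose between the outer zones (4.18 on the log2 scale, limma adjusted p = 9.57e-07). mmu-miR-223 did not pass (0.88, limma adjusted p = 0.0591). mmu-miR-486 was at 0.0913 and 18.1 in the proliferative and 16.2 and 4.55 in the hypertrophic zone. No array showed mmu-miR-144 or mmu-miR-142-3p well above background. The endothelial mmu-miR-126-3p was well above background only on both hypertrophic arrays, at 34.7 and 47.2. The other endothelial marker, mmu-miR-126-5p, reached that level on 0 arrays. Its scaled signals were -2.68 and -2.47 in the proliferative and -2.77 and -1.54 in the hypertrophic zone, so these markers did not change together. Muscle markers (0 of 4) were not well above background on any array, 2 of 6 epithelial markers were on at least 1 array, and 1 of 2 nerve markers was. The part of the other cell types in the members' differences was not tested.

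The 6 arrays shared 1 slide and 1 scan, with 24.2% to 27.9% of spots well above background and 0 saturated spots. The hypertrophic arrays lay in the first slide row and the prehypertrophic arrays in the second, so zone and row cannot be told apart between these zones, while the proliferative arrays lay in 1 row each. With the row as a block, the hypertrophic minus proliferative difference was -1.34 (adjusted p = 0.0146) for mmu-miR-125a-5p and -1.24 (adjusted p = 0.0182) for mmu-miR-99b. These are also the differences within the first row, where 1 proliferative array stands against 2. Sample titles run from 13 to 15 and from 16 to 18, each run holding 1 array of every zone. Within these runs the difference was -1.38 and -0.98 for mmu-miR-125a-5p and -1.14 and -0.91 for mmu-miR-99b. For mmu-miR-99a the prehypertrophic minus proliferative difference was 0.61 and 1.25. For mmu-miR-100 the direction of that contrast differed between the runs, at -0.54 and 0.36.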

How the data were processed

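The 6 one-colour Agilent miRNA arrays (miRBase 14) were used, 2 per growth plate zone, grouped by the zone in the labels. The deposited intensity values are background-subtracted processed signals from Feature Extraction 10.7.3.1, per the file headers. A deposited log2 table of the same arrays matched the log2 total signal of each miRNA minus 1 constant per array (largest departure 1.3e-06; column medians -4.943 to -4.254) and was an alternative. Here, outlier spots (384 to 515 of 13800 per array) were dropped, spots averaged per probe (1928 probes), and signals scaled to the 75th percentile of 342 probes (17.7%) well above background on all arrays. A floor of 12.66 scaled units (3.66 in log2) was set, and the probe with the highest mean log2 signal represented each miRNA. limma 3.58.1 (R 4.3.3) was fitted to 226 miRNAs whose probe passed the background flag on both arrays of at least 1 zone, with zone as a factor, 3 residual and 7.83 prior degrees of freedom. It was tested on simulated data.

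The members, lists and tests were chosen with earlier results of these data known. Named miRNAs are the 7 members, the let-7 neighbours, other family names, seed relatives, marker lists, and the 3 nearest profiles of each member. Alternatives covered scaling, floor, filter, background, probes, slide row, title run and each array left out. The number of arrays limits the precision.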

Additional observations from a re-analysis of the deposited data

How the results depend on the processing

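Of 378 member values under alternatives (18 per member and contrast), 329 kept their direction and side of the threshold, 28 reversed, 18 lost a call and 3 gained one. Of the 2 members called lower in the hypertrophic against the proliferative zone, 0 were called with the 75th percentile of all probes, median scaling, no scaling or no filter on dim miRNAs, and 1 was called with quantile normalization, the floor set 2 times higher, the mean over all probes or the deposited value table. Leaving out 1 array gave 0 to 3 calls. mmu-miR-125a-5p was called in 11 of 18 alternatives (-1.34 to -0.70, limma adjusted p from 0.00772 to 0.177) and mmu-miR-99b in 7 of 18 (-1.26 to -0.23, adjusted p from 0.0182 to 0.635). With the row as a block mmu-miR-100 was also called lower (-1.04, adjusted p = 0.0279). Between the prehypertrophic and proliferative zones, 1 member was called with normexp on median signals (mmu-miR-99a, 0.74, adjusted p = 0.0324, against a range up to 0.518 elsewhere). The cause of these changes was not tested.

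These reversals were all of values that were not called. With the 75th percentile of all probes, median scaling, quantile normalization and no scaling, the prehypertrophic minus proliferative difference was 0.03, 0.05, 0.05 and 0.25 for mmu-miR-100 and 0.11, 0.13, 0.03 and 0.33 for mmu-miR-125b-5p; these scalings moved the median of all tested miRNAs in that contrast by 0.12, 0.13, 0.10 and 0.30. For mmu-miR-125b-5p it was also 0.02 with the mean over probes, 0.09 with normexp, 0.18 with the deposited table and 0.19 with the row as a block, and for mmu-miR-100 0.26 with the row. Without scaling, mmu-miR-125b-5p reached 0.24 between the outer zones and mmu-miR-125a-3p 0.08 between the hypertrophic and prehypertrophic zones (0.09 with the row). Between the outer zones mmu-miR-125a-3p was at -0.19 with the mean over probes and -0.20 with the deposited table, and mmu-miR-99b* at -0.09 with normexp. Leaving out 1 array, the ranges were -0.17 to 0.32 for mmu-miR-99b* and -0.01 to 0.20 for mmu-miR-125a-3p between the outer zones, -0.44 to 0.26 for mmu-miR-100 and -0.21 to 0.19 for mmu-miR-125b-5p between the prehypertrophic and proliferative zones, and -0.22 to 0.09 for mmu-miR-125a-3p between the hypertrophic and prehypertrophic zones.

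No pair difference passed under its 12 alternatives (exact permutation, adjusted p from 0.0519 to 0.867). This says nothing on stability, since the few ways to assign arrays to zones limit how small p can be. Leaving out 1 array leaves fewer assignments and makes the smallest possible p larger. With normexp mmu-miR-125a-5p changed by -0.61 relative to mmu-miR-125b-5p and by -0.77 relative to mmu-miR-125a-3p. Its offset of 50 makes log2 differences of dim probes smaller, so these values are not like-for-like sizes. mmu-miR-99b minus mmu-miR-100 was 0.46 with the higher floor and 0.18 with the mean over probes, both limited by the floor. mmu-miR-99b minus mmu-miR-125a-5p reversed to -0.05 with the deposited table. The planned normexp correction could not be run as written, since the mean spot signal was not a column used here; the median signal was taken instead, a choice made after seeing the data, as was the use of the dimmer 5p probes (mmu-miR-125a-5p minus mmu-miR-125a-3p -1.24, limited by the floor). A paired analysis by replicate number was not run because the labels give no shared numbers; the block by title run, fitted only to the differences of single members between zones, changed no call.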
